A study of Mus musculus with 15 samples.

Results

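Adamts16 is the gene whose alleles were changed in these mice, and Adamts17, Adamts18 and Adamts19 are its nearest relatives in the ADAMTS family. The 4 genes were chosen by name, as the 4 of 55335 rows of the deposited expression table whose gene identifiers carry those symbols, and all 4 were found. Their levels did not enter that rule, though earlier results of these data were known when the genes were chosen. RNA of mouse hearts collected at E14.5, when the valves are being shaped, was sequenced in 15 libraries. There were 4 libraries labelled Adamts16+/-, with a single intact allele of a gene the series' design text calls knocked out, and 4 labelled Adamts16+/H355Q, in which a single allele carries a missense change. The other 7 were labelled WT. The labels give neither the strain, nor which part of the gene the knockout allele lacks, nor whether a library held 1 heart or several, so each n counts libraries and each p-value measures only the spread between these libraries. The question put to these genes was how much Adamts16 RNA the hearts hold under each genotype, and whether the level of a close relative differs with it.

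ADAMTS proteins (a disintegrin and metalloprotease with thrombospondin motifs) are secreted zinc proteases that cut or organise the extracellular matrix. They are made with a propeptide that furin-type convertases remove, their thrombospondin repeats carry an added sugar, and many are held in check by TIMP inhibitors or taken up from the matrix by the endocytic receptor LRP1. ADAMTS16 is known to cut fibronectin, the fibre-forming matrix protein encoded by Fn1. ADAMTS17 binds fibrillin microfibrils, and its loss in people gives a Weill-Marchesani-like syndrome of the lens and short stature. ADAMTS19 is made by valve interstitial cells, and its loss gives heart valve disease in people and aortic valve disease in mice. ADAMTS18 acts in the development of the eye and of branching organs such as the lung.

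The coding sequences showed how the 4 genes pair off. In the GENCODE vM21 annotation of the GRCm38 build, Adamts16 (ENSMUSG00000049538) lies on chromosome 13 from 70727802 to 70841811, on the minus strand. Adamts17 (ENSMUSG00000058145) lies on chromosome 7 from 66839735 to 67153171, on the plus strand. Adamts18 (ENSMUSG00000053399) lies on chromosome 8 from 113697126 to 113848738, on the minus strand. In the transcripts used here (Adamts16-201, Adamts17-201, Adamts18-201 and Adamts19-201), each of the 4 genes has 23 exons. The coding sequences hold 1222, 1122, 1219 and 1210 codons in Adamts16, Adamts17, Adamts18 and Adamts19. Translated and aligned, Adamts16 and Adamts18 were identical at 56.3% of aligned residues, and Adamts17 and Adamts19 at 58.1%. The 4 cross pairs lay between 36.6% and 38.9%.

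The label H355Q names a histidine of the protein and the glutamine that replaces it, and the annotated codon of that residue in Adamts16 is CAT, a histidine codon, in exon 7. The reference stretch around it, 7 codons to each side (codons 348 to 362), is shown with the aligned stretches of Adamts18 (codons 353 to 367, exon 7) and Adamts17 (codons 290 to 304, exon 6), because it is the site the missense allele changes. They are the coding strand at chr13:70793181-70793225, chr8:113773180-113773224 and chr7:66909331-66909375 of GRCm38, and capitals mark the H355Q codon and those aligned with it.
Adamts16: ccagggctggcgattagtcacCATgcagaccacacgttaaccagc
Adamts18: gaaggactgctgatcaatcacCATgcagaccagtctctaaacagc
Adamts17: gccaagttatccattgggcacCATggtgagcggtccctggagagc
The capital codon is CAT in all 3 stretches, and the aligned codon 395 of Adamts19 encodes the same residue, so the histidine is shared by the 4 genes in the reference. It lies 76 codons before the zinc-binding site in Adamts16 and Adamts18, and 90 codons before it in Adamts17 and Adamts19.

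The zinc-binding site, which holds the catalytic metal through 3 histidines, is shown for comparison, since it defines the protease. Its codons 431 to 441 of Adamts16, 436 to 446 of Adamts18 and 387 to 397 of Adamts17 are each split between exons 8 and 9, with outer ends at chr13:70787149-70791812, chr8:113767168-113771052 and chr7:66968898-67002473. Capitals mark the 3 histidine codons.
Adamts16: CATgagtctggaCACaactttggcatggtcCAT
Adamts18: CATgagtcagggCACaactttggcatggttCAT
Adamts17: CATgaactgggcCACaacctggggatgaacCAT
All 3 histidine codons are the same in the 3 genes. A gene-level expression value does not tell the H355Q allele from the intact allele, so the share of each allele in the Adamts16+/H355Q libraries was not measured here.

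Before the levels, 3 properties of the libraries bear on them. The steps between low values implied 37.7 to 48.1 M sequenced fragments (M, mega) for the Adamts16+/- libraries, 51.1 to 59.0 M for Adamts16+/H355Q and 42.1 to 56.1 M for WT. Cardiomyocyte markers, such as Tnnt2 and Actc1, summed to 9515 to 12710 FPKM (fragments per kilobase of transcript per M fragments) in Adamts16+/-, 10230 to 12620 FPKM in Adamts16+/H355Q and 10320 to 13080 FPKM in WT, in keeping with the heart label. Markers of adjoining tissue were also present. The thymus factor Foxn1 or the lung surfactant gene Sftpc was above 0.5 FPKM in 6 libraries, Adamts16+/- 1 and 2, Adamts16+/H355Q 2 and 4, and WT 3 and 7. The WT libraries stood apart from each other as well: numbers 1 to 4 held 107.9 to 112.5 FPKM of Fn1 and numbers 5 to 7 held 57.1 to 74.7 FPKM, and no label separates them. Some differences below are therefore also given without those libraries. In bulk RNA, fewer cells of a type and less RNA per cell cannot be told apart.

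All 4 genes were detected in all 15 libraries, in the same order of level per length in each. Adamts19 was highest, at 3.60 ± 0.389 FPKM in Adamts16+/- hearts (SD, n = 4), 4.07 ± 0.457 FPKM in Adamts16+/H355Q hearts (SD, n = 4) and 3.98 ± 0.612 FPKM in WT hearts (SD, n = 7). Adamts17 came next, then Adamts18, and Adamts16 was lowest, at 0.116 ± 0.0804 FPKM in Adamts16+/- (SD, n = 4), 0.104 ± 0.0267 FPKM in Adamts16+/H355Q (SD, n = 4) and 0.106 ± 0.0758 FPKM in WT (SD, n = 7). Adamts19 exceeded Adamts17 by a factor of 1.08 to 2.53 within a library (median 1.79), and Adamts17 exceeded Adamts18 by a factor of 2.89 to 27.7 (median 8.81). Adamts18 exceeded Adamts16 by a factor of 1.30 to 14.7 (median 2.22).

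**Figure D1:**
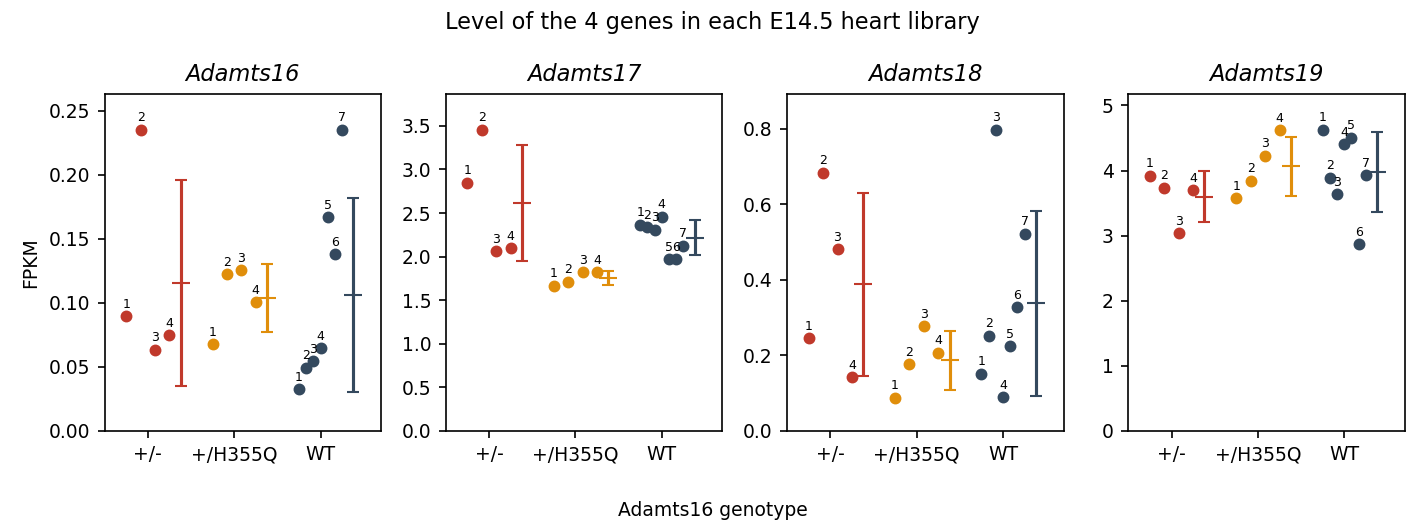
FPKM of the 4 genes in each library (points, numbered by library) by Adamts16 genotype, with the mean and SD of each group; each panel has its own axis from 0. Adamts17 in the 4 Adamts16+/H355Q libraries lies below every Adamts16+/- and WT library, while the groups overlap for the other 3 genes.

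Within the 19 ADAMTS proteases, the 4 genes sat in different parts of the range of levels. Ranked by mean level in WT, Adamts19 was 5 of 19, Adamts17 was 10, Adamts18 was 16 and Adamts16 was 18, with only Adamts13, the von Willebrand factor protease, lower. The highest was Adamts1, a versican-cutting protease, at 18.4 ± 2.56 FPKM in Adamts16+/- (SD, n = 4), 16.1 ± 3.36 FPKM in Adamts16+/H355Q (SD, n = 4) and 13.9 ± 1.26 FPKM in WT (SD, n = 7). Among the 35290 genes with a level above 0 in WT, Adamts16 stood at percentile 42.9 and Adamts19 at percentile 77.1. Neighbours in the order were close: Adamts19 and Adamts8 differed by less than their SDs in Adamts16+/- and WT libraries, as did Adamts17 and Adamts2. Adamts16 rested on 11 to 79 implied fragments per library, Adamts18 on 38 to 424, Adamts17 on 613 to 1277 and Adamts19 on 1957 to 3824.

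**Figure D2:**
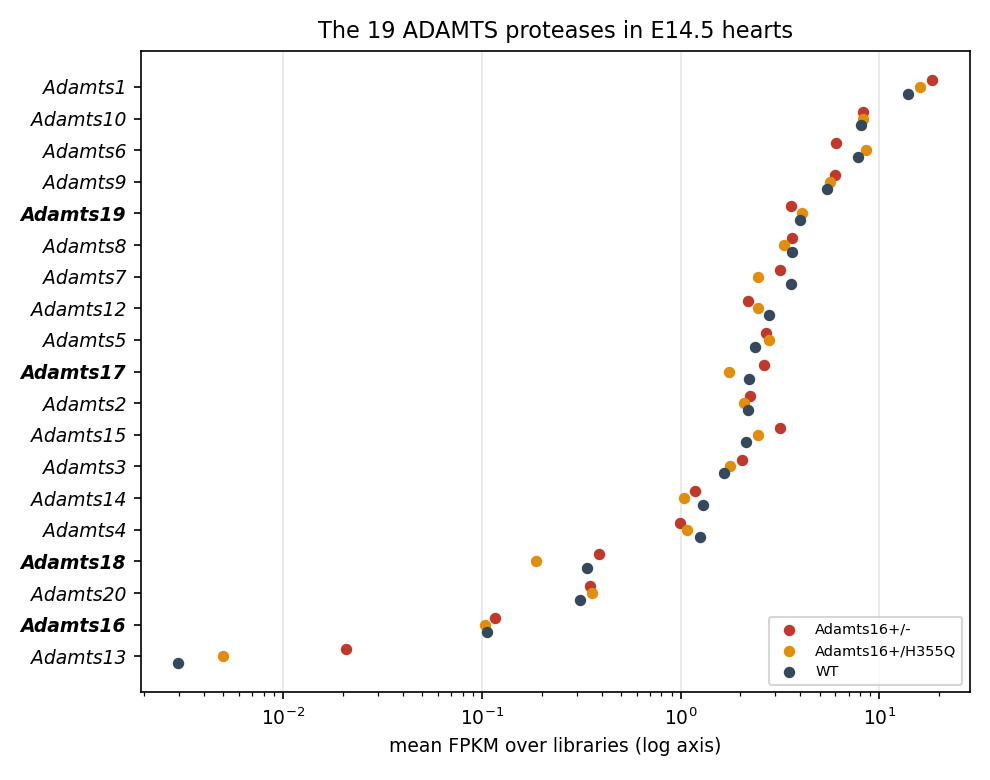
Mean FPKM of the 19 ADAMTS proteases (log axis) in Adamts16+/-, Adamts16+/H355Q and WT libraries, ordered by the WT mean, with the 4 genes in bold. Adamts19 is number 5 from the top, and only Adamts13 lies below Adamts16.

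Adamts16, the targeted gene, did not differ detectably between genotypes. It was at 0.0897, 0.235, 0.0635 and 0.0747 FPKM in the 4 Adamts16+/- libraries. The 4 Adamts16+/H355Q libraries held 0.0677, 0.123, 0.125 and 0.101 FPKM, and the WT libraries held 0.0324 at the lowest, 0.0647 at the median and 0.235 FPKM at the highest. Adamts16+/- library 2 and WT library 7 shared the highest level, and both mutant ranges lay inside the WT range. On log2(FPKM + 0.5), Adamts16+/- minus WT was 0.02 (95% limma interval -0.17 to 0.22), with a two-sided exact permutation p of 0.830 and an adjusted p of 0.958 over the 3 comparisons. Adamts16+/H355Q minus WT was 0.004 (interval -0.19 to 0.20, exact permutation p = 0.958, adjusted p = 0.958). Adamts16+/- minus Adamts16+/H355Q was 0.02 (interval -0.20 to 0.24, exact permutation p = 0.943, adjusted p = 0.958).

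Halving the WT level of Adamts16 would give -0.13 on this scale, inside the interval, so the level neither shows nor excludes loss of the RNA of 1 allele and does not check the Adamts16+/- label. The labels do not say which exons the knockout allele lacks. The sign of the difference from WT changed with the choice of WT libraries. The first 4 WT libraries by number held 0.0324 to 0.0647 FPKM of Adamts16, and the other 3 held 0.138 to 0.235 FPKM. Adamts16+/- minus WT was 0.15 without WT libraries 5 to 7 (exact permutation p = 0.0571, adjusted p = 0.0857) and -0.15 without WT libraries 1 to 4 (exact permutation p = 0.229, adjusted p = 0.343). Adamts16+/H355Q minus WT was 0.13 (exact permutation p = 0.0286, adjusted p = 0.0857) and -0.17 (exact permutation p = 0.0571, adjusted p = 0.171) under the same omissions. All 4 Adamts16+/H355Q libraries lay above WT libraries 1 to 4 and below WT libraries 5 to 7. These p-values are thus the smallest that 4 against 4 and 4 against 3 libraries allow. A test of 4 against 3 libraries cannot reach 0.05. An antisense gene, Gm36607, overlaps the end of Adamts16, but was above 0 in only 4 libraries and reached 0.0435 FPKM at most; Gm36529, antisense at its start, was above 0 in 3, at most at 0.0241 FPKM.

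Levels of oesophagus and skin epithelium markers varied along with Adamts16 in some libraries and not in others. The list of 6 (Trp63, Krt5, Krt14, Krt15, Krt8 and Epcam) was detected whole in every library. It summed to 7.50 to 29.8 FPKM in Adamts16+/-, 6.91 to 33.4 FPKM in Adamts16+/H355Q and 5.50 to 56.2 FPKM in WT. Krt5 was at 5.07 to 11.6 FPKM in the libraries with Foxn1 above 0.5 FPKM, and at most 0.63 FPKM in all others. WT library 6 had a sum of 24.4 FPKM with Foxn1 at 0.0333 FPKM. The sum therefore does not tell these epithelia from thymus tissue. WT library 7 had the highest sum, 56.2 FPKM, and Adamts16+/- library 2 had 29.8 FPKM. WT library 5, next highest for Adamts16 at 0.167 FPKM, had a marker sum of only 6.39 FPKM. Adamts16+/H355Q libraries 4 and 2 had marker sums of 33.4 and 28.6 FPKM, with Adamts16 at 0.101 and 0.123 FPKM. In Adamts16+/- library 1 the marker sum was 22.6 FPKM, with Adamts16 at 0.0897 FPKM. Without the 6 libraries with thymus or lung RNA, Adamts16+/- minus WT was -0.05 (exact permutation p = 0.857) and Adamts16+/- minus Adamts16+/H355Q was -0.07 (exact permutation p = 0.667). That left Adamts16+/- libraries 3 and 4, Adamts16+/H355Q libraries 1 and 3, and WT libraries 1, 2, 4, 5 and 6. These are too few for an exact permutation p under 0.05, so the p-values decide nothing. The part of adjoining epithelium in the Adamts16 level was not tested.

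**Figure D3:**
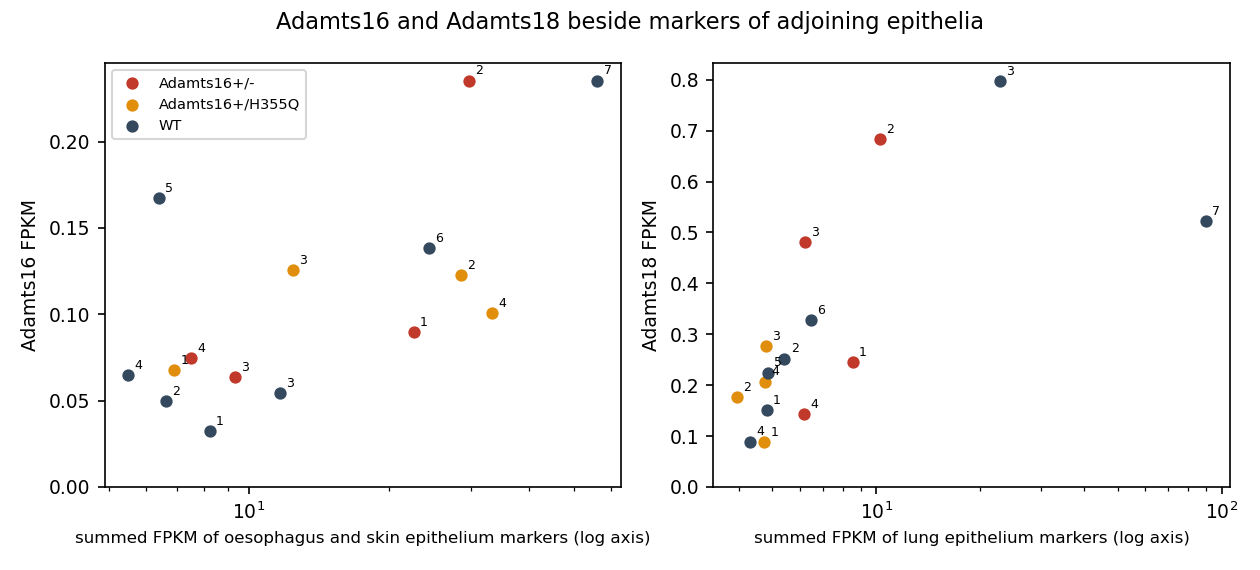
Left, Adamts16 FPKM against the summed FPKM of 6 oesophagus and skin epithelium markers; right, Adamts18 FPKM against the summed FPKM of 8 lung epithelium markers (log x axes; 1 point per library, numbered within genotype). Adamts16+/- library 2 and WT library 7 are high on both axes at left, while WT library 5 has Adamts16 at 0.167 FPKM with few epithelial markers. Adamts16+/H355Q libraries 4 and 2 have marker sums of 33.4 and 28.6 FPKM with Adamts16 at 0.101 and 0.123 FPKM.

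Adamts18, the closest relative of Adamts16, varied most among libraries and was not called between genotypes. It was at 0.246, 0.683, 0.481 and 0.143 FPKM in Adamts16+/- libraries. It was at 0.0882, 0.177, 0.277 and 0.207 FPKM in Adamts16+/H355Q libraries, and between 0.0889 and 0.798 FPKM in WT, with a median of 0.252. WT library 3 and Adamts16+/- library 2 were the highest, no Adamts16+/H355Q library exceeded 0.277 FPKM, and all 3 groups overlapped. Its coefficient of variation over the 15 libraries was 69.1%, against 58.7% for Adamts16, 21.3% for Adamts17 and 13.4% for Adamts19. Adamts16+/- minus WT was 0.09 on the log2 scale (interval -0.36 to 0.54, exact permutation p = 0.727, adjusted p = 0.727). Adamts16+/H355Q minus WT was -0.24 (interval -0.69 to 0.20, exact permutation p = 0.285, adjusted p = 0.427). Adamts16+/- minus Adamts16+/H355Q was 0.34 (interval -0.17 to 0.84, exact permutation p = 0.2, adjusted p = 0.427). Both intervals against WT include a halving (-0.32 for the WT level) and no change. Between the alleles the ratio of means was 2.07, with 0.388 ± 0.242 FPKM in Adamts16+/- and 0.187 ± 0.0782 FPKM in Adamts16+/H355Q (SD, n = 4 each). The interval between the alleles includes both that ratio and no change. It stops short only on the other side, where a halving of the Adamts16+/H355Q level would give -0.21.

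Lung epithelium markers were highest in some of the libraries with much Adamts18. The list of 8 summed to 6.18 to 10.3 FPKM in Adamts16+/-, 3.95 to 4.78 FPKM in Adamts16+/H355Q and 4.30 to 90.2 FPKM in WT, with 0 to 5 of the 8 markers at 0 in a library. WT library 3 (Adamts18 0.798 FPKM) had 22.8 FPKM of lung markers with Sftpc at 10.04 FPKM, and WT library 7 (Adamts18 0.522 FPKM) had 90.2 FPKM with Sftpc at 71.6 FPKM. Adamts16+/- library 3, by contrast, held 0.481 FPKM of Adamts18 with Sftpc at 0. Without the 6 libraries with thymus or lung RNA, Adamts16+/H355Q minus WT was -0.06 (exact permutation p = 0.762). The libraries left were too few for an exact permutation p under 0.05. The part of lung RNA in the Adamts18 level was not tested.

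Adamts17 was the only one of the 4 with a called difference, and it was lowest in Adamts16+/H355Q hearts. It was at 2.85, 3.46, 2.06 and 2.10 FPKM in Adamts16+/- libraries. It was at 1.67, 1.71, 1.83 and 1.82 FPKM in Adamts16+/H355Q libraries, and between 1.97 and 2.46 FPKM in WT, with a median of 2.31. All 4 Adamts16+/H355Q libraries lay below all 11 others. Adamts16+/- libraries 1 and 2 lay above every WT library, while libraries 3 and 4 lay within the WT range. The 3 small annotated loci inside Adamts17 (Gm44755, Gm44609 and Gm17909) reached at most 0.0843 FPKM in any library.

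Between the alleles, Adamts17 averaged 2.62 ± 0.668 FPKM in Adamts16+/- and 1.76 ± 0.0798 FPKM in Adamts16+/H355Q (SD, n = 4 each), a ratio of means of 1.49. The log2 difference was 0.44 ± 0.119 (SE; interval 0.19 to 0.69), with an adjusted p of 0.0321 in limma over 15172 genes. Of the 2 of the 4 genes that passed the filter on low levels (Adamts17 and Adamts19), 1 was thus called in this comparison, in which 10.0% of all genes tested were called and 5.71% were called higher. The groups did not overlap, which held for 12.6% of all genes in that direction, and the exact permutation p was 0.0286, the smallest that 4 against 4 libraries allow (adjusted over the 3 comparisons, 0.0429). The size rested partly on Adamts16+/- libraries 1 and 2: the difference was 0.40 without library 1 (limma adjusted p = 0.0926) and 0.32 without library 2 (limma adjusted p = 0.0845). Over the 15 omissions of a single library, the call held in 9; it was also lost without Adamts16+/H355Q library 1, 2, 3 or 4, with limma adjusted p of 0.0739, 0.0823, 0.0543 and 0.0601.

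Markers of adjoining tissue moved with the higher Adamts17 levels in Adamts16+/- hearts. The 2 Adamts16+/- libraries high in Adamts17 were those with thymus markers, whose sum of 6 genes was 3.15, 4.94, 0.782 and 0.726 FPKM in Adamts16+/- libraries 1 to 4. In Adamts16+/H355Q libraries 1 to 4 the same sum was 0.652, 12.8, 0.713 and 7.33 FPKM, so its highest values there went with Adamts17 levels of 1.71 and 1.82 FPKM. In WT libraries it was 0.534 to 0.987 FPKM in 6 and 15.9 FPKM in WT library 7, in which Adamts17 was at 2.12 FPKM. Without the 6 libraries with thymus or lung RNA, the difference between the alleles was 0.20 (limma adjusted p = 0.570), with 2.06 and 2.10 FPKM in the remaining Adamts16+/- libraries and 1.67 and 1.83 FPKM in the remaining Adamts16+/H355Q libraries.

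Against WT, the 2 tests of Adamts17 gave different calls for Adamts16+/H355Q. The level was 1.76 ± 0.0798 FPKM in Adamts16+/H355Q (SD, n = 4) and 2.22 ± 0.198 FPKM in WT (SD, n = 7), a log2 difference of -0.27 (interval -0.49 to -0.04). In limma the unadjusted p was 0.0230 and the adjusted p 0.202, so the gene was not called in a comparison in which 0.376% of genes were. The exact permutation test gave 0.00606, the smallest p that 4 against 7 libraries allow, or 0.0182 adjusted over the 3 comparisons; groups without overlap and lower in Adamts16+/H355Q were found for 1.79% of genes. The difference stayed between -0.29 and -0.25 when any single library was left out, and was -0.35 without WT libraries 5 to 7 (limma adjusted p = 0.0575) and -0.16 without WT libraries 1 to 4 (limma adjusted p = 0.684). Adamts16+/- minus WT was 0.18 (interval -0.05 to 0.40, limma adjusted p = 0.377), in a comparison in which 2.75% of genes were called. Without the 6 libraries with thymus or lung RNA it was -0.07 (limma adjusted p = 0.854).

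Adamts19 (ENSMUSG00000053441), the paralog made in the valve interstitium, lies on chromosome 18 from 58836667 to 59054060, on the plus strand. It was not called in any of the 3 comparisons. It was at 3.92, 3.74, 3.03 and 3.70 FPKM in Adamts16+/- libraries. It was at 3.57, 3.85, 4.23 and 4.62 FPKM in Adamts16+/H355Q libraries, and between 2.86 and 4.63 FPKM in WT, with a median of 3.93. The groups overlapped, and WT library 6 was the lowest of all 15. Adamts16+/- minus WT was -0.12 (interval -0.35 to 0.11, limma adjusted p = 0.575) and Adamts16+/H355Q minus WT was 0.03 (interval -0.20 to 0.26, limma adjusted p = 0.895). Adamts16+/- minus Adamts16+/H355Q was -0.16 (interval -0.42 to 0.10, limma adjusted p = 0.423). Its intervals against WT stop well short of a halving, which would give -0.85. Summed markers of valve mesenchyme overlapped, at 175.9 to 231.3 FPKM in Adamts16+/-, 175.2 to 236.7 FPKM in Adamts16+/H355Q and 173.5 to 223.3 FPKM in WT, but the markers in the sum went both ways. Of the 9 that passed the filter, 4 were called in limma in Adamts16+/- against WT (2.75% of all genes were), with the transcription factors Sox9 and Twist1 and the matrix link protein gene Hapln1 higher (log2 differences 0.59, 0.56 and 1.02; limma adjusted p = 0.0377, 0.0224 and 0.0353). Postn, which encodes the matrix protein periostin, was lower, at 71.6 ± 11.5 FPKM in Adamts16+/- (SD, n = 4) and 94.8 ± 7.18 FPKM in WT (SD, n = 7; log2 difference -0.41, limma adjusted p = 0.04998). None of these 4 calls held without WT libraries 5 to 7 (limma adjusted p 0.0521 to 0.164) or without the 6 libraries with thymus or lung RNA (0.124 to 0.342). Only 59 and 6 of 15172 genes were called in this comparison in those settings. The log2 differences kept their sign, at 0.53 and 0.36 for Sox9 and 0.58 and 0.57 for Twist1. They were 0.73 and 0.96 for Hapln1 and -0.34 and -0.63 for Postn.

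**Figure D4:**
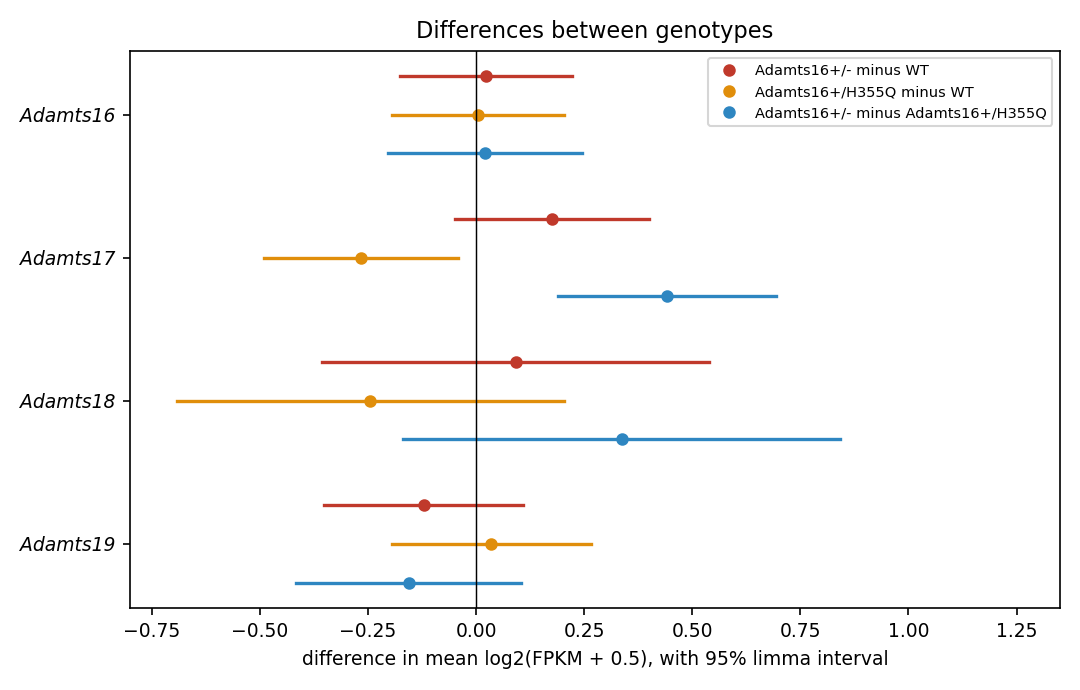
Difference in mean log2(FPKM + 0.5) of each gene for Adamts16+/- minus WT, Adamts16+/H355Q minus WT and Adamts16+/- minus Adamts16+/H355Q, with 95% limma intervals. The interval lies off 0 for Adamts17 in the 2 comparisons with Adamts16+/H355Q and includes 0 for the other 3 genes.

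The 4 genes did not follow each other across libraries. As a description over 15 libraries that share genotype, depth and tissue makeup, Spearman's rho between them ran from -0.304 (Adamts18 and Adamts19) to 0.3 (Adamts16 and Adamts18). Among about 12561 genes compared, the 5 most like Adamts17 were Trerf1 (0.936), Ednra (0.907), Clspn (0.9), Tshz1 (0.9) and Ick (0.896). Ednra encodes the endothelin A receptor of vascular smooth muscle, and Tshz1 a zinc finger transcription factor. The 5 most like Adamts18 were Ptn (0.882), which encodes the secreted growth factor pleiotrophin, Gdf10 (0.875), a TGF-beta family ligand, Slc27a6 (0.875), Tshz3 (0.854) and Lsr (0.854). Those most like Adamts19 were Iqcc (0.921), Trim68 (0.893), Luc7l2 (0.882), Msh5 (0.879) and Sbsn (0.879). Those most like Adamts16 were Trmt2a (0.914), Tyro3 (0.907), Camkk1 (0.889), Cd55 (0.882) and Snx22 (0.882). No p is given, since the genes were picked for these values.

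Of the 15 other ADAMTS proteases, 13 passed the filter and 1 was called in any comparison. None was called in Adamts16+/- against WT, where limma gave an unadjusted p under 0.05 for 5 (19.6% of all genes) and the median log2 difference was 0.01, equal to that of all genes (0.01). Without WT libraries 1 to 4, 1 was called higher and 1 lower there, Adamts1 and Adamts12, where 19.1% of all genes were called. In Adamts16+/H355Q against WT, Adamts7, which cuts cartilage oligomeric matrix protein, was lower. It was at 2.23, 2.89, 2.46 and 2.25 FPKM in Adamts16+/H355Q libraries, and between 3.002 and 4.116 FPKM in WT. The groups did not overlap (1.79% of all genes, in that direction), and the log2 difference was -0.47 ± 0.0854 (SE, limma adjusted p = 0.0282), in a comparison in which 0.257% of genes were called lower. The call was lost in 7 of the 15 omissions of a single library, with limma adjusted p up to 0.145 (Adamts16+/H355Q library 1, 3 or 4, or WT library 1, 2, 3 or 5). It was also lost with no filter on low levels (limma adjusted p = 0.0711), with TPM scaling (0.0547), with only the 2 groups fitted (0.0707) and without WT libraries 1 to 4 (log2 difference -0.42, limma adjusted p = 0.168). Without WT libraries 5 to 7 it was -0.50 (limma adjusted p = 0.00165). Between the alleles none of the 13 was called in limma, and 1 had an unadjusted p under 0.05 (28.9% of all genes). That gene was Adamts7, at 0.31 (limma adjusted p = 0.0556), and at an adjusted p of 0.0205 without WT libraries 5 to 7.

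Of the ADAMTS-like proteins, which resemble the proteases but lack the catalytic part, 6 of 7 passed the filter and 1 changed. Adamtsl4, which binds fibrillin microfibrils and whose loss in people displaces the lens, was at 1.58, 1.57, 1.66 and 1.68 FPKM in Adamts16+/- libraries. It was at 1.24, 1.56, 1.43 and 1.36 FPKM in Adamts16+/H355Q libraries, and between 1.77 and 2.27 FPKM in WT. Every mutant library lay below every WT library, as held for 2.39% of genes in Adamts16+/- and 1.79% in Adamts16+/H355Q. Against the same WT libraries, the log2 difference was -0.31 in Adamts16+/- (limma adjusted p = 0.0316; 1.18% of genes called lower) and -0.47 in Adamts16+/H355Q (limma adjusted p = 0.00690). The call in Adamts16+/- was lost without any single one of its 4 libraries or without WT library 1, 2 or 5, with limma adjusted p up to 0.109. That in Adamts16+/H355Q held in all 15 omissions of a single library, with limma adjusted p from 0.000692 to 0.0369. Without WT libraries 1 to 4 both calls were lost, at -0.24 in Adamts16+/- (limma adjusted p = 0.0774) and -0.41 in Adamts16+/H355Q (limma adjusted p = 0.106). Without WT libraries 5 to 7 both held, at -0.35 and -0.52 (limma adjusted p = 0.0474 and 0.000348). Between the alleles none was called in limma, with 3 of 6 at an unadjusted p under 0.05, against 28.9% of all genes.

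Substrates and microfibril partners, 8 genes that all passed the filter, held 1 called gene, in 1 comparison. Fn1, the fibronectin gene, was at 131, 138, 119 and 117 FPKM in Adamts16+/- libraries and at 62.4, 59.8, 78.7 and 79.3 FPKM in Adamts16+/H355Q libraries. The groups did not overlap, as for 12.6% of all genes in that direction, and the log2 difference was 0.85 (limma adjusted p = 0.0239), in a comparison with 10.0% of genes called and 5.71% called higher. The call was lost without Adamts16+/- library 1, 2 or 3 or Adamts16+/H355Q library 1 or 2, with limma adjusted p up to 0.0747. Against all 7 WT libraries, none of the 8 was called in limma. In Adamts16+/-, 6 of 8 had an unadjusted p under 0.05, against 19.6% of all genes, with a median log2 difference of 0.39; without WT libraries 5 to 7 it was 2 of 8. Fbn2, which encodes the fetal microfibril protein fibrillin-2, was at 34.6 ± 4.08 FPKM in Adamts16+/- (SD, n = 4) and 24.2 ± 4.32 FPKM in WT (SD, n = 7), a log2 difference of 0.52 (limma adjusted p = 0.0717). For Fbn1 it was 0.27 (limma adjusted p = 0.246). In Adamts16+/H355Q, 1 of 8 had an unadjusted p under 0.05, against 18.3% of all genes, the median was -0.05, and Fbn1 and Fbn2 differed from WT by -0.003 and 0.10 (limma adjusted p = 0.991 and 0.745).

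The values of these genes against WT turned on which WT libraries were used. For Fn1, Adamts16+/- minus WT was 0.53 with all 7 (limma adjusted p = 0.132), 0.20 without WT libraries 5 to 7 (limma adjusted p = 0.297) and 0.96 without WT libraries 1 to 4 (limma adjusted p = 0.00231). Adamts16+/H355Q minus WT was -0.33 with all 7 (limma adjusted p = 0.352), -0.65 without WT libraries 5 to 7 (limma adjusted p = 0.000694) and 0.11 without WT libraries 1 to 4 (limma adjusted p = 0.783). Fn1 was thus called higher in Adamts16+/- against WT libraries 5 to 7 and called lower in Adamts16+/H355Q against WT libraries 1 to 4. The split of the WT libraries was chosen after seeing the data, and Fn1 itself separates its parts. These Fn1 calls are therefore not independent of the split. Without WT libraries 1 to 4, 5 of the 8 were called in Adamts16+/- against WT, 4 higher and 1 lower (Fn1, Fbn2, Ltbp1, Ltbp2 and Vcan), where 19.1% of all genes were called. Without WT libraries 5 to 7, Fn1 and Ltbp4 were called lower in Adamts16+/H355Q against WT, where 21.5% of all genes were called.

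Of 11 genes for propeptide removal, sugar addition, inhibition and clearance, 10 passed the filter, and those called with all 15 libraries were higher in Adamts16+/-. Pcsk5 and Pcsk6 encode convertases of the furin type. Pcsk6 was at 2.46, 2.60, 2.38 and 2.65 FPKM in Adamts16+/- libraries. It was at 1.82, 1.36, 1.96 and 2.02 FPKM in Adamts16+/H355Q libraries, and between 1.52 and 2.10 FPKM in WT, so all 4 Adamts16+/- libraries lay above all others. Against WT, 3.40% of genes lay wholly higher in this way and 1.57% were called higher. The log2 difference from WT was 0.42 ± 0.0862 (SE, limma adjusted p = 0.0228), and from Adamts16+/H355Q, where 10.0% of genes were called and 5.71% called higher, it was 0.41 ± 0.0973 (SE, limma adjusted p = 0.0211). For Pcsk5 the level was 2.53 ± 0.176 FPKM in Adamts16+/- (SD, n = 4), 2.01 ± 0.246 FPKM in Adamts16+/H355Q (SD, n = 4) and 2.01 ± 0.0963 FPKM in WT (SD, n = 7). Its log2 difference was 0.27 from WT (limma adjusted p = 0.0437) and 0.28 from Adamts16+/H355Q (limma adjusted p = 0.0334).

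Between the alleles, 4 of these 10 genes were called, all higher in Adamts16+/-, against 5.71% of all genes called higher. Besides the convertases they were the uptake receptor gene Lrp1, at 10.2 ± 2.18 FPKM in Adamts16+/- and 6.04 ± 0.444 FPKM in Adamts16+/H355Q (SD, n = 4 each; log2 difference 0.69, limma adjusted p = 0.0185), and the inhibitor gene Timp2. Timp2 was at 23.4 ± 0.916 FPKM in Adamts16+/- and 19.2 ± 1.54 FPKM in Adamts16+/H355Q (SD, n = 4 each; log2 difference 0.28, limma adjusted p = 0.0402). Furin and Timp3, the inhibitor most tied to ADAMTS proteases, differed by 0.38 and 0.30 between the alleles (limma adjusted p = 0.127 and 0.0719). Timp3 was called between the alleles with only the 2 groups fitted (limma adjusted p = 0.00889). It was also called without WT libraries 5 to 7 (0.00181) or 1 to 4 (0.0192). Those settings called 3021, 3491 and 2614 of 15172 genes. Timp3 was not called with no filter or without the 6 libraries with thymus or lung RNA (limma adjusted p = 0.1475 and 0.389). Furin was called without WT libraries 5 to 7 (0.0467). In Adamts16+/- against WT, Furin and Timp3 differed by 0.11 and 0.08 (limma adjusted p = 0.698 and 0.668). In Adamts16+/H355Q against all 7 WT libraries none of the 10 was called in limma, 3 had an unadjusted p under 0.05 (18.3% of all genes), and Furin and Timp3 differed by -0.26 and -0.22 (limma adjusted p = 0.319 and 0.219). Without WT libraries 5 to 7, 5 of the 10 were called lower in that comparison (B3glct, Furin, Lrp1, Timp2 and Timp3), where 21.5% of all genes were called; Timp3 was then at -0.36 (limma adjusted p = 0.000667), Lrp1 at -0.49 (limma adjusted p = 0.0100) and Furin at -0.44 (limma adjusted p = 0.0244). Without WT library 7 alone, Timp2 and Timp3 were called lower, where 1414 of 15172 genes were called, 514 of them lower. Without WT libraries 1 to 4 none of the 10 was called there, with 1 at an unadjusted p under 0.05.

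In Adamts16+/- against WT, the convertase calls also depended on the WT libraries. Without WT libraries 5 to 7, Pcsk6 was at 0.40 and Pcsk5 at 0.24 (limma adjusted p = 0.0866 and 0.138). Without WT libraries 1 to 4, 5 of the 10 were called higher (B3glct, Lrp1, Pcsk5, Pcsk6 and Timp3), where 19.1% of all genes were called. Summed markers of some other heart cells differed between the alleles, but few single markers were called. Endothelial and endocardial markers summed to 195.6 to 201.4 FPKM in Adamts16+/-, 151.1 to 161.9 FPKM in Adamts16+/H355Q and 135.9 to 215.4 FPKM in WT. The sums of the alleles did not overlap. Nor did the levels of Pecam1, Cdh5, Kdr, Tek, Tie1 and Nfatc1, each higher in Adamts16+/-, while those of Emcn and Npr3 overlapped. Of all genes, 12.6% did not overlap in that direction. Of these 8 markers 1 was called between the alleles, where 10.0% of all genes were, the endocardial transcription factor gene Nfatc1, at 4.31 ± 0.573 FPKM in Adamts16+/- and 3.10 ± 0.303 FPKM in Adamts16+/H355Q (SD, n = 4 each; log2 difference 0.41, limma adjusted p = 0.0408). Epicardial markers summed to 86.2 to 113.2 FPKM in Adamts16+/-, 60.9 to 84.7 FPKM in Adamts16+/H355Q and 72.6 to 99.2 FPKM in WT. None of these 6 markers was called between the alleles. Of 8 cardiomyocyte markers, Myh6 was called higher and Myl2 lower in Adamts16+/- than in Adamts16+/H355Q. The part of these cells in the differences between the alleles of Adamts17, Fn1, Lrp1, Pcsk5, Pcsk6 and Timp2 was not tested.

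These calls depended on single libraries. Against WT, Pcsk6 was lost when any single one of the 4 Adamts16+/- libraries was left out (limma adjusted p up to 0.0744), and Pcsk5 in 12 of 15 omissions (up to 0.130), all but Adamts16+/H355Q libraries 1, 2 and 4. Between the alleles, Lrp1 and Pcsk6 were lost without Adamts16+/- library 1 or 2 or Adamts16+/H355Q library 2 (limma adjusted p up to 0.0576 and 0.0628), Pcsk5 without Adamts16+/- library 1, 2 or 3 or Adamts16+/H355Q library 1 or 2 (up to 0.105), and Timp2 when any single one of the 8 libraries was left out (up to 0.122). With no filter on low levels, Adamtsl4 in Adamts16+/H355Q against WT and Lrp1 between the alleles were the only calls among the 4 lists. Without the 6 libraries with thymus or lung RNA, none of the 37 genes of the 4 lists was called in limma, with 9, 4 and 7 at an unadjusted p under 0.05 in Adamts16+/- against WT, Adamts16+/H355Q against WT and Adamts16+/- against Adamts16+/H355Q. In that setting Pcsk6 was at 0.46 from WT in Adamts16+/- (limma adjusted p = 0.172), and Adamtsl4 at -0.32 in Adamts16+/- and -0.57 in Adamts16+/H355Q (limma adjusted p = 0.261 and 0.0769). Only 6, 7 and 5 of 15172 genes were called there in the same 3 comparisons. The 3 comparisons share libraries in pairs, so their calls are not independent.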

How the data were processed

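The deposited table gives FPKM per gene and library, computed by the authors. Per the submitters' processing notes, DESeq2, HTSeq, HISAT2, fastp and R 3.2.0 were used, in roles that are not stated. Neither the FPKM tool nor the genome build is given in the sources used here. Symbols were matched to 55154 of 55335 identifiers through GENCODE vM21 (GRCm38), which also gave positions and coding sequences. Depth was estimated from the steps between low values, of which 56.4% to 59.5% were whole within 0.1 step, so whole reads were not recovered and no count model was used. The 15172 genes averaging 0.5 FPKM or more were tested with limma 3.58.1 (R 4.3.3; variance trend, all 15 libraries, genotype as the only term) on log2(FPKM + 0.5), with Benjamini-Hochberg adjustment and a call at an adjusted p under 0.05. On this scale, folds of low genes come out too small. Adamts16 and Adamts18 lay below the filter and were tested with two-sided exact permutation tests (scipy 1.17.1), adjusted over 3 comparisons, with intervals from limma without the filter. Besides the 4 genes, the text names called genes of 4 pathway lists, with Fn1, Furin, Timp3, Fbn1 and Fbn2 in any case, and the 5 genes most like each member (numbered gene models, Rik names and pseudogenes left out). The members and lists were chosen with earlier results of these data known. Alternatives covered the pseudocount, filter, scaling, test, replicate block, groups fitted and each library left out; settings that left out WT libraries 5 to 7, WT libraries 1 to 4, or libraries with Foxn1 or Sftpc above 0.5 FPKM were chosen after seeing the data.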

Additional observations from a re-analysis of the deposited data

Results flagged for a closer look

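Adamts16 was at 0.235 FPKM in Adamts16+/- library 2, far from the 0.0635 to 0.0897 FPKM of the other 3 Adamts16+/- libraries. The gap to its nearest neighbour was 0.848 of the group's range, above Dixon's 95% critical value for 4 samples. Of 45 groups tested in this way, over 15 genes, 1 passed, where chance alone passes about 1 in 20. The same library had the highest Adamts17 level of all 15 (3.46 FPKM), an Adamts18 level exceeded only in WT library 3 (0.683 FPKM) and an oesophagus and skin epithelium marker sum of 29.8 FPKM. Adamts16+/H355Q library 4 and WT library 7 had higher marker sums, 33.4 and 56.2 FPKM. The part of adjoining epithelium in the Adamts16 value of Adamts16+/- library 2 was not tested.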

How the results depend on the processing

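The limits are few libraries, low levels of Adamts16 and Adamts18, and libraries that stood apart. No setting called Adamts16, Adamts18 or Adamts19. For Adamts16 and Adamts18, some exact permutation tests held too few libraries for a p under 0.05. These were both comparisons with WT without WT libraries 1 to 4, and all comparisons without libraries with Foxn1 or Sftpc. The comparison between the alleles with any single mutant library left out was also among them. No call was possible there. Adamts16 in Adamts16+/- against WT was -0.15 without WT libraries 1 to 4 and -0.047 without libraries with Foxn1 or Sftpc, and -0.064 to 0.072 with single libraries left out. In Adamts16+/H355Q against WT it was -0.17 without WT libraries 1 to 4, and -0.026 to 0.052 with single libraries left out. Between the alleles it was -0.066 without libraries with Foxn1 or Sftpc, and -0.068 to 0.060 with single libraries left out. Adamts17 between the alleles stayed at 0.44 but lost its call with no filter (adjusted p = 0.0793) and with only the 2 groups fitted (adjusted p = 0.0506), where more genes or fewer libraries entered the fit. It was 0.20 without libraries with Foxn1 or Sftpc (adjusted p = 0.570) and 0.32 to 0.53 with single libraries left out (adjusted p 0.0241 to 0.0926). Adamts17 in Adamts16+/H355Q against WT passed the exact permutation test at -0.27 (adjusted p = 0.0182), and in Adamts16+/- against WT it was -0.072 without libraries with Foxn1 or Sftpc. Adamts18 in Adamts16+/- against WT was -0.059 to 0.23 with single libraries left out. Adamts19 in Adamts16+/H355Q against WT was -0.023 with the replicate number as a block, -0.023 without WT libraries 5 to 7, -0.039 without libraries with Foxn1 or Sftpc, and -0.032 to 0.088 with single libraries left out. The causes were not tested.

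The number of genes called, 417 in Adamts16+/- against WT, 57 in Adamts16+/H355Q against WT and 1524 between the alleles, was 157, 24 and 580 with no filter. It was 274, 24 and 3021 with only the 2 groups fitted, 59, 3262 and 3491 without WT libraries 5 to 7, and 2903, 20 and 2614 without WT libraries 1 to 4. Without libraries with Foxn1 or Sftpc it was 6, 7 and 5. TPM scaling gave 754 in Adamts16+/- against WT, with 591 higher and 163 lower, against 238 and 179 as reported and 151 and 184 with median of ratios scaling. With single libraries left out the ranges were 61 to 463, 21 to 1414 (the highest without WT library 7) and 285 to 2485. The replicate number as a block gave 8, 2762 and 2931; it kept Adamts17 between the alleles at 0.44 (adjusted p = 0.0374) and changed no call of the 4 genes. The numbers do not pair the samples: same-numbered libraries correlated at -0.234 to 0.239, over 0.1 in 3 of 12 pairs, and 2 of 12 correlated best with their own number. The block over 4 shared numbers leaves WT libraries 5 to 7 with no partner.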
